A study of Rattus norvegicus with 10 samples.

Results

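The gamma-crystallin family was followed in the lens capsules of cold-treated and untreated rats through its 7 genes measured here, Cryga, Crygb, Crygc, Crygd, Crygf, Crygn and Crygs. They were taken by gene name from a table of 3334 genes, which the authors had selected for change between the groups. All 7 passed the filter on low counts, as did 3222 genes of the table. Cryga, Crygb, Crygc, Crygd and Crygf lie on chromosome 9, Crygn on chromosome 4 and Crygs on chromosome 11, and the comparison of the chromosome 9 genes with Crygn and Crygs runs through the results.

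RNA was sequenced from lens capsules of male Sprague-Dawley rats (labelled SD) that were 6 weeks old, 5 of them assigned to the Hypothermia Group and 5 to the Normal Group. In the Hypothermia Group, whole lenses were taken out and kept in Hibernate-A medium at 4°C for 8 h before the capsule was peeled off, whereas Normal capsules were collected at once after euthanasia with no incubation. Cold, isolation, medium and the 8 h delay therefore cannot be told apart. Both capsules of a rat made 1 sample, all rats were of 1 strain, and nothing in the labels marks a batch.

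Gamma-crystallins are small, compact proteins of the lens fibre cells, where they are packed at very high concentration and help to give the lens its refractive power. They are among the proteins known for cold cataract, the clouding of young lenses on cooling, because solutions of several of them separate into a dense and a dilute phase in the cold. The genes of the chromosome 9 cluster are used mainly by fibre cells formed early in life, Crygs goes on being used in the outer fibres of the older lens, and Crygn is a divergent member that also has features of beta-crystallins. The lens capsule itself is a basement membrane with the epithelium on its inner face, and peeled capsules may carry outer fibre cells with them.

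The deposited coordinates (build Rnor_6.0) put 4 of the cluster genes side by side on the minus strand of chromosome 9. Crygd spanned 71764318 to 71778323, Crygc 71786248 to 71788281, Crygb 71796204 to 71798265 and Cryga 71828308 to 71830730. The gaps were 7924 bases between Crygd and Crygc, 7922 between Crygc and Crygb and 30042 between Crygb and Cryga. Crygf stood apart, 1102573 bases beyond Cryga and on the plus strand, at 72933304 to 72935468. Crygn (chromosome 4, 6903198 to 6909167) and Crygs (chromosome 11, 81796891 to 81802172) were both on the plus strand, and all 7 genes were annotated as protein-coding. The deposited model of Crygd spanned 14006 bases, against 2034 to 2423 for the other cluster genes. In RefSeq's order of genes its neighbour on the outer side is Cryge, which was not analysed here. The cluster genes are close copies of each other, and the share of reads that could have been counted for the wrong copy was not tested.

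The start regions are shown because the 5 cluster genes share a stretch there that Crygn and Crygs lack. Each line gives the last 100 bases before the annotated start of transcription, positions -100 to -1, read 5′ to 3′ on the gene's own strand (RefSeq, 7 of 7 genes matched). Capitals mark CCCTTTTGTG and the TATA-type runs, which are TATATA, also in overlapping copies, and TATAAA.
Cryga (GRCr8 chr9:73978383-73978482, minus strand): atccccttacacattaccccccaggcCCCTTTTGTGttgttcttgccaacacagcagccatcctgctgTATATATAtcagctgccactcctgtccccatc
Crygb (GRCr8 chr9:73957265-73957364, minus strand): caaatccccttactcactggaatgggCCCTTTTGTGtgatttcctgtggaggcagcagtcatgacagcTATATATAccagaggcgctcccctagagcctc
Crygc (GRCr8 chr9:73947368-73947467, minus strand): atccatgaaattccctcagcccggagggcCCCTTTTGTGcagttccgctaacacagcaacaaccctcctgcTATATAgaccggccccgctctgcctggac
Crygd (GRCr8 chr9:73937410-73937509, minus strand): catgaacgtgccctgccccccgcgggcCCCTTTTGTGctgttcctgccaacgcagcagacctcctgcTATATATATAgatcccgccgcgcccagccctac
Crygf (GRCr8 chr9:74897884-74897983, plus strand): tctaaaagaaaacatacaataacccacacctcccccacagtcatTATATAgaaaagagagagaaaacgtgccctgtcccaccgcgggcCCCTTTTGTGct
Crygn (GRCr8 chr4:11286375-11286474, plus strand): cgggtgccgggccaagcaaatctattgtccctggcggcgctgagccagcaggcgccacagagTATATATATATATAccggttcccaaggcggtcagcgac
Crygs (GRCr8 chr11:91711655-91711754, plus strand): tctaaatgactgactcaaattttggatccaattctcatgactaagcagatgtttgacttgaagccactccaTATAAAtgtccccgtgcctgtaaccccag

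CCCTTTTGTG was the longest run found in the windows of all 5 cluster genes, each reaching from 250 bases before the start to 50 after it. It was found by comparing these sequences, so its presence in the cluster is no independent result. Its first base lay at -74 in Cryga and Crygb, -71 in Crygc, -73 in Crygd and -12 in Crygf. On either strand, 39 of the 33469 RefSeq windows of this length held the run (0.117%), in 29 genes, among them the 5 cluster genes and Cryge. Neither Crygn nor Crygs had it.

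TATATA began at -32 in Cryga and Crygb, -29 in Crygc, -33 in Crygd and -38 in Crygn, and 6.15% of all windows held this run on either strand. Crygs had TATAAA at -29 in its place, a run held by 14.2% of windows. In Crygf the first TATATA lay at -56, upstream of CCCTTTTGTG. Overlapping copies also began at 29, 31 and 33, past the annotated start and downstream of CCCTTTTGTG, as in the other cluster genes. The annotated start of Crygf thus does not line up with theirs. TGCTGA, part of the recognition element of the lens factor Maf, was found in Cryga, Crygc and Crygs (18.4% of windows). ACAAAG, a Sox-type run, was found in Cryga, Crygd and Crygf (18.8% of windows), and the shorter ACAAT in Crygd, Crygf, Crygn and Crygs (33.7% of windows). The heat shock element arms GAANNTTC (8.59% of windows) and TTCNNGAA (8.77% of windows) matched none of the 7 windows.

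Every gamma-crystallin gene was higher in the Hypothermia Group than in the Normal Group. Levels are given as FPKM, fragments scaled to gene length and to sequencing depth, so that genes can be set beside each other. Crygs, the most abundant member, is a soluble crystallin of the outer fibres. It was measured at 27898, 22056, 35553, 26777 and 50551 FPKM in Hypothermia rats 1 to 5, and at 15473, 7746, 2812, 4751 and 7631 FPKM in Normal rats 1 to 5. The lowest Hypothermia rat was 1.43 times the highest Normal rat, the widest gap in the family.

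Crygc and Crygd are neighbouring genes whose human counterparts are well-known cataract genes, and in FPKM they ran almost level with each other. This level rests on deposited gene lengths of 618 bases for Crygc and 976 for Crygd. Mean normalized counts of Crygc and Crygd were 204478 and 315447 in the Hypothermia Group, and 44709 and 71611 in the Normal Group. Crygc stood at 19315, 17079, 12279.9, 15255 and 35029 FPKM in Hypothermia rats 1 to 5 and at 10648, 3816, 866, 2140 and 4167 FPKM in Normal rats 1 to 5. For Crygd the values were 20759, 17051, 11396, 14798 and 32662 FPKM in the Hypothermia rats and 10976, 3927, 878, 2046 and 4117 FPKM in the Normal rats, in the same order. Within a rat the ratio of Crygc to Crygd stayed between 0.930 and 1.08 among Hypothermia rats and between 0.970 and 1.05 among Normal rats, while each gene ranged over 12.3-fold or more within the Normal Group.

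Crygb reached 15320, 12129.5, 6380, 10220.3 and 20603 FPKM in Hypothermia rats 1 to 5, against 5380, 1757, 363, 1065 and 2199 FPKM in Normal rats 1 to 5. Cryga, at the far end of the row of 4 genes, stood at 6812, 3620, 1575, 2081 and 6802 FPKM against 1505, 778, 86.7, 242 and 647 FPKM. Crygf had the lowest level of the family, at 744, 364, 152.9, 235 and 707 FPKM in the Hypothermia rats and 152.8, 85.4, 8.60, 29.4 and 81.9 FPKM in the Normal rats. Its groups barely separated, with 1748.9 normalized counts in Hypothermia rat 3 and 1747.7 in Normal rat 1.

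Crygn was measured at 3432, 1961, 5143, 3218 and 4386 FPKM in Hypothermia rats 1 to 5 and at 1788, 1379, 368, 672 and 919 FPKM in Normal rats 1 to 5. Rat 3 was the highest Hypothermia rat for Crygn and the lowest for all 5 cluster genes. For each of the 7 genes, the lowest Hypothermia rat lay above the highest Normal rat. The same held for 41.9% of the 3222 genes tested, so a separation of the groups was common in this table of genes listed as changed.

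**Figure D1:**
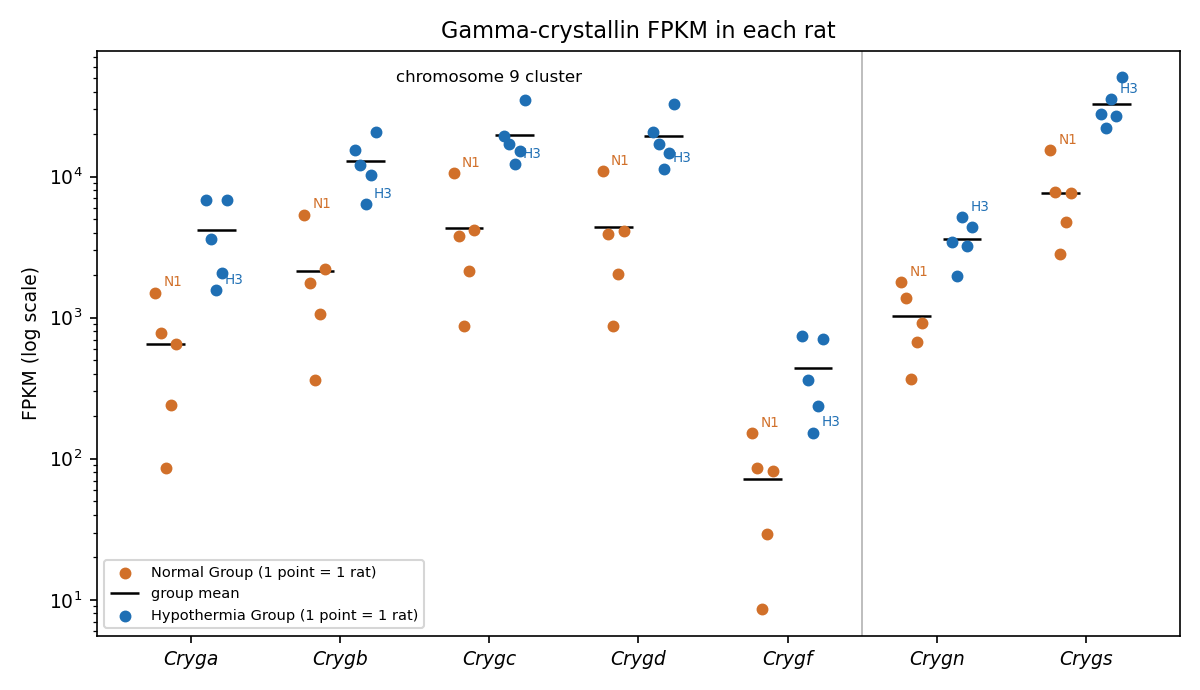
FPKM (log axis) of the 7 gamma-crystallin genes, with 1 point per rat (Normal Group orange, Hypothermia Group blue, 5 rats each) and a bar at each group mean. Normal rat 1 (N1) was the highest Normal rat for every gene, and Hypothermia rat 3 (H3) was the lowest of its group for the 5 chromosome 9 genes but the highest for Crygn and second highest for Crygs.

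The spread among Normal rats was wide and had the same order for every gene at its ends. Normal rat 1 was the highest, rat 3 the lowest and rat 4 the second lowest for all 7 genes. Rats 2 and 5 changed places, with rat 5 above rat 2 for Crygb, Crygc and Crygd only. The highest Normal rat exceeded the lowest by 17.4-fold for Cryga, 14.8-fold for Crygb, 12.3-fold for Crygc, 12.5-fold for Crygd and 17.8-fold for Crygf. The same ratio was 4.86 for Crygn and 5.50 for Crygs. In the Hypothermia Group it ran from 2.29 for Crygs to 4.86 for Crygf.

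In the Hypothermia Group the mean level was 32567 ± 11160 FPKM (SD, n = 5) for Crygs, followed by Crygc at 19792 ± 8899, Crygd at 19333 ± 8192 and Crygb at 12931 ± 5373. Cryga at 4178 ± 2516, Crygn at 3628 ± 1210.2 and Crygf at 441 ± 271 FPKM made up the lower end. Crygc and Crygd differed by far less than their SDs, as did Cryga and Crygn, which changed places in 2 of 5 rats. Crygd exceeded Crygb in all 5 rats, although the difference of their means was smaller than the SD of Crygd.

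Normal rats had 7683 ± 4822 FPKM (SD, n = 5) of Crygs, 4389 ± 3921 of Crygd, 4327 ± 3775 of Crygc and 2153 ± 1934 of Crygb. Crygn at 1025 ± 564 FPKM here stood above Cryga at 652 ± 555, and it did so in all 5 rats. Crygf was again lowest at 71.6 ± 56.2 FPKM. From Crygs down to Cryga, each difference between neighbouring means in the Normal Group was smaller than the larger SD of the pair, so the order rests on the comparisons within rats. Crygs exceeded Crygd, Crygc exceeded Crygb and Cryga exceeded Crygf in 5 of 5 Normal rats, Crygb exceeded Crygn in 4 and Crygd exceeded Crygc in 3.

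Crygs supplied 35.8 ± 8.03% of the summed gamma-crystallin FPKM in the Hypothermia Group and 41.5 ± 6.92% in the Normal Group (mean ± SD, n = 5 each). Crygc and Crygd came next, with 20.9 ± 2.54% and 20.6 ± 2.85% in the Hypothermia Group and 19.9 ± 2.60% and 19.98 ± 2.79% in the Normal Group. Crygb held 13.8 ± 3.06% in the Hypothermia Group and 9.67 ± 1.95% in the Normal Group. The shares of Cryga, Crygn and Crygf were 4.33 ± 1.97%, 4.14 ± 1.79% and 0.457 ± 0.218% in the Hypothermia Group, and 2.87 ± 0.95%, 5.72 ± 1.39% and 0.323 ± 0.113% in the Normal Group. The plot of the family's make-up in each rat shows that Hypothermia rat 3 and Normal rat 3, with 49.1% and 52.2% of Crygs, had the largest Crygs shares of their groups.

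**Figure D2:**
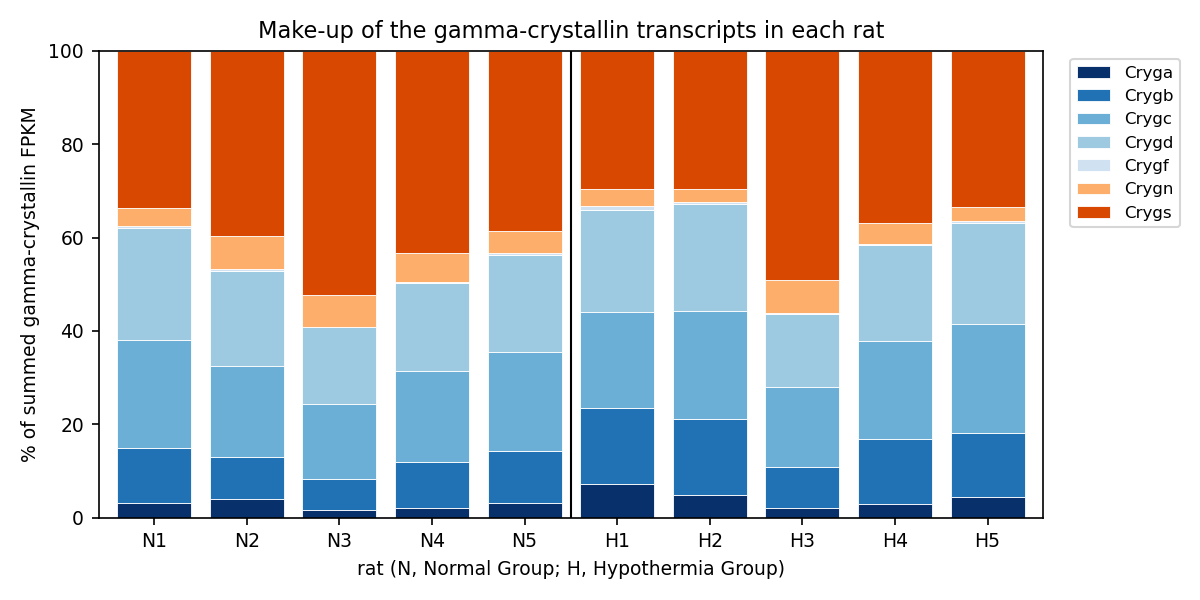
Percent of the summed FPKM of the 7 genes supplied by each gene, with 1 bar per rat (N, Normal Group, left; H, Hypothermia Group, right), chromosome 9 genes in blue and Crygn and Crygs in orange. The Crygs share (top) ran from 29.6% to 49.1% over the Hypothermia rats and from 33.7% to 52.2% over the Normal rats, so the groups overlapped.

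The fold changes of the 7 genes were tested with edgeR on the deposited counts, with a positive log2 fold change for higher in the Hypothermia Group. A gene was called when its adjusted p was under 0.05 and its log2 fold change above 1. All 7 members were called higher, as were 331 of 3222 genes tested (10.3%), while 61 (1.89%) were called lower. With DESeq2 and the size factors behind the FPKM, 366 (11.4%) were called higher and 120 (3.72%) lower. An unadjusted edgeR p under 0.05 was had by 3221 of the 3222 genes (100% when rounded), so that this measure sets no gene apart here. Because the table was selected for change between the same groups, this count says little by itself.

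Crygs had a log2 fold change of 2.08 ± 0.44 (SE), with an edgeR adjusted p of 0.0102. For Crygn it was 1.82 ± 0.41 (adjusted p = 0.0149), the smallest change of the family. The cluster genes had larger or similar changes with larger errors. Crygb changed by 2.59 ± 0.62 (adjusted p = 0.0194), Cryga by 2.68 ± 0.73 (adjusted p = 0.0351) and Crygf by 2.62 ± 0.71 (adjusted p = 0.0348). Crygc changed by 2.19 ± 0.58 (adjusted p = 0.0288) and Crygd by 2.14 ± 0.58 (adjusted p = 0.0321). As folds, the changes ran from 3.54 for Crygn to 6.41 for Cryga. The median over the 7 genes was 2.19 and over the cluster 2.59, beside 0.36 over all 3222 genes tested. By size of fold change, Cryga ranked 17, Crygf 19 and Crygb 24 from the top of these genes, and Crygc, Crygd, Crygs and Crygn ranked 53, 64, 71 and 111.

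The calls of the cluster genes depended on single rats, and those of Crygs and Crygn did not. Without Hypothermia rat 1 or 5, or without Normal rat 2 or 5, edgeR called 3 of the 7 genes (Crygb, Crygn and Crygs). Without Normal rat 4 it called 2 (Crygn and Crygs). Without Hypothermia rat 2 it called 5, with Cryga and Crygf at edgeR adjusted p-values of 0.0520 and 0.0503. Scaled to the total counts of the listed genes, the log2 fold changes were 0.67 to 1.66 and edgeR called 0 of the 7, though all 7 had an unadjusted p under 0.05 in that fit and the median over all genes tested moved by -1.23. DESeq2 called 7 of 7 with the size factors behind the FPKM.

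**Figure D3:**
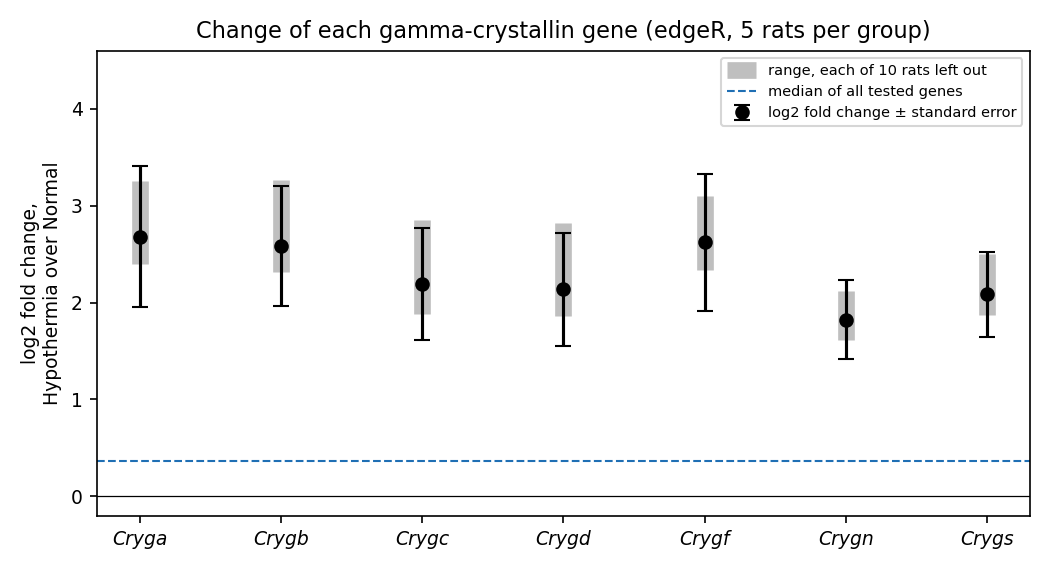
Log2 fold change of each gene, Hypothermia over Normal (edgeR, 5 rats per group), with bars of ± 1 standard error, a grey box for the range over 10 fits that each left out 1 rat, and a dashed line at the median of all genes tested (0.36). All 7 genes lay above 1.6 in every such fit, and the errors of the cluster genes overlapped those of Crygn and Crygs.

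A ratio of counts within a rat does not depend on scaling, so the make-up of the family was compared in this way. The cluster sum weighs its genes unequally. Mean normalized counts over the 10 rats were 193529 for Crygd and 124594 for Crygc. They were 78926 for Crygb, 24869 for Cryga and 2929 for Crygf. Ratios of the sum therefore describe mainly Crygd and Crygc. The summed counts of the 5 cluster genes over those of Crygs had a log2 ratio of 1.26, 1.28, -0.06, 0.77 and 1.01 in Hypothermia rats 1 to 5 and of 1.01, 0.54, -0.22, 0.33 and 0.67 in Normal rats 1 to 5. The group means were 0.85 ± 0.55 and 0.46 ± 0.46 (SD, n = 5 each), a difference of 0.39 that missed the threshold (two-sided exact permutation test, p = 0.254, adjusted p = 0.254 over 3 ratios). The groups overlapped, with Hypothermia rat 3 below 4 of the 5 Normal rats.

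The cluster over Crygn gave log2 ratios of 5.03, 5.52, 3.48, 4.57 and 5.29 in Hypothermia rats 1 to 5 and of 4.87, 3.78, 3.46, 3.90 and 4.47 in Normal rats 1 to 5. The means of 4.78 ± 0.81 and 4.10 ± 0.57 differed by 0.68 (exact permutation test, p = 0.159, adjusted p = 0.254). Crygs over Crygn had means of 3.93 ± 0.32 and 3.63 ± 0.25, a difference of 0.29 (exact permutation test, p = 0.175, adjusted p = 0.254). Hypothermia rat 3 and Normal rat 3 had the lowest ratio of the cluster to Crygs and to Crygn in their groups.

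The size of these differences depended on single rats, which were singled out after their values were seen. Without Hypothermia rat 3, the cluster exceeded Crygs by 0.62 more in the Hypothermia Group than in the Normal Group (exact permutation test, p = 0.0397, adjusted p = 0.0595) and Crygn by 1.01 more (p = 0.0317, adjusted p = 0.0595). Neither adjusted p passed 0.05. Without Normal rat 3, in the other direction, the difference of the cluster to Crygs was 0.22 (adjusted p = 0.484) and that of the cluster to Crygn 0.52 (adjusted p = 0.429, exact permutation tests). Crygs to Crygn ran from 0.20 without Normal rat 2 to 0.39 without Hypothermia rat 3. The smallest p that the full comparison of 5 against 5 rats allows is 0.00794.

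**Figure D4:**
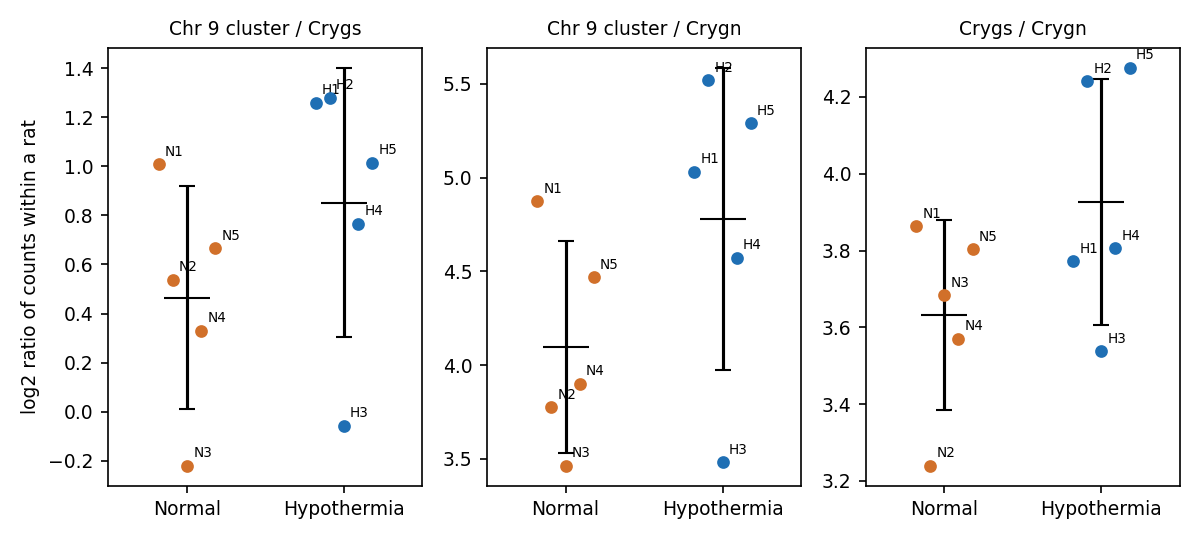
Log2 ratio of counts within each rat for the 5 chromosome 9 genes over Crygs (left), the same genes over Crygn (middle) and Crygs over Crygn (right), with 1 labelled point per rat and bars for the group mean ± SD (n = 5); each panel has its own axis, which does not start at 0. The groups overlapped in all 3 ratios, and H3 lay near N3 at the bottom of the left and middle panels.

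Each member was also set against the sum of the other 6. The log2 ratio of Crygb to the rest was -2.89 ± 0.39 in the Hypothermia Group and -3.45 ± 0.33 in the Normal Group, a difference of 0.56 with an exact permutation p of 0.0556 (adjusted p = 0.389 over 7 members). Cryga differed by 0.56 and Crygf by 0.45 in the same direction, Crygc by 0.09 and Crygd by 0.05. Crygn differed by -0.54 and Crygs by -0.36, and were thus lower relative to the rest in the Hypothermia Group. Across these 6 genes the exact permutation p ran from 0.143 to 0.754, and no member passed, before or after adjustment. No change in the make-up of the family was thus detected, while the 7 genes together took 4.03 ± 2.12% of the listed counts in the Normal Group and 8.73 ± 1.91% in the Hypothermia Group.

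The members moved together from rat to rat, closely within the cluster. After each group's mean was taken off, the log2 normalized counts of the 10 pairs of cluster genes had Pearson correlations of 0.933 to 0.998 over the 10 rats. The 10 pairs of a cluster gene with Crygn or Crygs had correlations of 0.672 to 0.928, and Crygn with Crygs had 0.923. Within the 5 Normal rats the pairs across had 0.944 to 0.999, but within the 5 Hypothermia rats they had -0.18 to 0.611, while the pairs within the cluster kept 0.825 to 0.996 there. These values describe genes that share libraries and scaling, and among the cluster genes also close sequence.

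The members parted in several Hypothermia rats. In rat 3, against the mean of its group on the log2 scale, the values were -1.16 for Cryga, -0.91 for Crygb, -0.59 for Crygc, -0.67 for Crygd and -1.27 for Crygf, but 0.58 for Crygn and 0.19 for Crygs. Its beta-crystallin genes ranged from 0.18 (Cryba4) to 0.41 (Crybb2), and the alpha-crystallin genes Cryaa and Cryab stood at 0.43 and 0.63. Rat 1 was high for Cryga (0.95) and Crygf (1.01) but near its group's mean for Crygc (0.06) and Crygn (-0.01), with Crygs at -0.16. In rat 2 the cluster genes lay between -0.11 and 0.04, while Crygn had -0.82 and Crygs -0.50. In Normal rat 3 all 15 crystallin genes were low, from -2.49 for Crygf to -0.84 for Cryab.

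**Figure D5:**
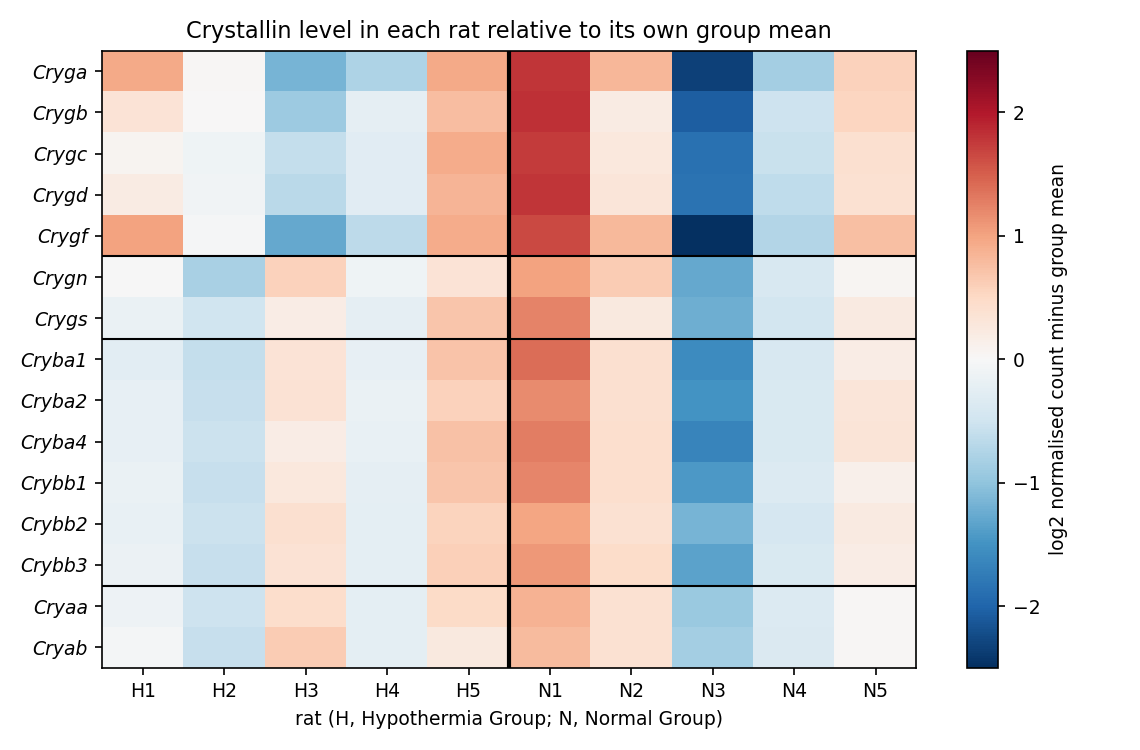
Log2 normalized count of 15 crystallin genes in each rat minus the mean of its own group (red above, blue below), with horizontal lines between the chromosome 9 cluster, Crygn and Crygs, the beta- and the alpha-crystallins. In H3 the 5 cluster genes were below their group mean (-1.27 to -0.59) and the other 10 genes above it (0.18 to 0.63). Within each Normal rat, and within H4 and H5, all 15 genes deviated in the same direction, above the mean in N1 and below it in N3.

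Ratios within a rat placed the family beside the other crystallins of the lens. Summed over the 7 genes, the log2 ratio of gamma- to alpha-crystallin counts (Cryaa and Cryab, small heat shock proteins and chaperones of the lens) was -1.58 ± 0.47 in the Hypothermia Group and -2.32 ± 0.52 in the Normal Group. The difference of 0.74 had an exact permutation p of 0.0397 and an adjusted p of 0.0794 over 2 ratios. It missed the threshold with all rats and passed it without Hypothermia rat 3 (0.94, adjusted p = 0.0317) or Normal rat 1 (0.92, adjusted p = 0.0476). Against the 6 beta-crystallin genes, structural relatives of the gamma-crystallins, the ratio was -1.71 ± 0.40 and -1.92 ± 0.23, a difference of 0.21 (exact permutation test, p = 0.341, adjusted p = 0.341). That difference was 0.38 without Hypothermia rat 3 (adjusted p = 0.0397), and 0.14 and 0.13 without Hypothermia rats 1 and 2 (adjusted p = 0.571 for both, exact permutation tests). By edgeR both alpha genes were called higher (median log2 fold change 1.60), as were 6 of 6 beta genes (median 2.11, range 1.97 to 2.28).

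Of 17 genes listed as regulators of lens crystallins, 7 were in the table, and 3 of these were called higher and 0 lower both by edgeR (10.3% and 1.89% over all genes tested) and by DESeq2 (11.4% and 3.72%). All 7 had an unadjusted edgeR p under 0.05, as had 3221 of the 3222 genes tested. Hsf4, a heat shock factor of the lens, had a log2 fold change of 2.19 ± 0.48 (adjusted p = 0.0156). Tdrd7 and Caprin2, RNA-binding proteins that act on lens transcripts, had 1.57 and 1.54. The transcription factors Maf and Pitx3 had edgeR adjusted p-values of 0.0134 and 0.0198 at log2 fold changes of 0.64 and 0.34, under the threshold of 1. Pax6, a master regulator of the eye that is high in the lens epithelium, had -0.26 (adjusted p = 0.0498) and was likewise under the fold threshold. For Pax6 all Hypothermia rats lay below all Normal rats, as for 16.7% of the 3222 genes tested. Eya1, a coactivator of eye development, had -0.65 (adjusted p = 0.0631). The median of the 7 was 0.64, beside 0.36 over all genes tested.

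Genes of lens fibre cells moved with the family. Of 14 listed, 12 were in the table. By edgeR 11 were called higher (10.3% over all genes tested) and by DESeq2 all 12 (11.4%). Their median log2 fold change in edgeR was 2.03, from 1.31 for Tmod1 (a capping protein of actin filaments, adjusted p = 0.0825 by edgeR, called by DESeq2) to 2.91 for Mip, the water channel of the fibre membrane. Their summed normalized counts ran from 245649 to 531624 in the Hypothermia rats and from 34217 to 143842 in the Normal rats. Of 10 genes listed for the lens epithelium, 4 were in the table, and edgeR called 0 higher and 2 lower, Notch3 at -1.33 and the cell cycle gene Ccnd1 at -1.03. Over all genes tested, edgeR called 1.89% lower. DESeq2 also called 0 higher and 2 lower (3.72% lower over all genes), and all 4 had an unadjusted edgeR p under 0.05, as nearly all genes did. The gap junction gene Gja1 had -0.43 (edgeR adjusted p = 0.0567) and Pax6 had -0.26 (edgeR adjusted p = 0.0498), and neither was called. Both belonged to a shorter set of epithelial cell type markers, which did not hold Notch3 or Ccnd1. The authors had reported Notch3 as down-regulated in these data, so its call here is no independent result. The summed epithelial counts ran from 19890 to 24468 in the Hypothermia rats and from 27189 to 33889 in the Normal rats. In these bulk samples a larger amount of fibre tissue on the capsule and more gamma-crystallin RNA per cell cannot be told apart, and the part of either in the result was not tested.

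Some markers of tissue around the lens were lower in the Hypothermia Group. Of 14 genes for iris, ciliary body and stroma, 5 were in the table and 4 were tested, of which Fn1 (fibronectin, -3.09) and Pmel (of pigment granules, -1.77) were called lower by edgeR (1.89% over all genes). DESeq2 called 3 lower (3.72% over all genes), 0 were called higher by either, and all 4 had an unadjusted edgeR p under 0.05, as nearly all genes did. The sums of the 5 genes ran from 964 to 5001 normalized counts in the Hypothermia rats and from 2092 to 30648 in the Normal rats, and thus overlapped. They were made up mainly of Fbn1 (fibrillin-1), with means of 2773 ± 1712 and 13536 ± 14254 (SD, n = 5 each). Fbn1 was not called by edgeR (-2.29, adjusted p = 0.159). Of 11 genes for retina and pigment epithelium, 5 were in the table and 3 were tested, and 0 were called by edgeR or DESeq2, with an unadjusted edgeR p under 0.05 for all 3 as for nearly all genes. Their sums were 192 to 439 in the Hypothermia rats and 364 to 1593 in the Normal rats. None of 9 blood and immune genes was in the table. The part of these tissues in the gamma-crystallin levels was not tested.

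The genes most like the cluster from rat to rat were sought among 2974 other genes with a mean of at least 50 normalized counts. They were ranked by the Pearson correlation of group-centred log2 counts with the cluster sum over the 10 rats. First came Birc7 (0.994), a member of the inhibitor-of-apoptosis protein family that is also among the listed fibre genes. Clic5, a chloride intracellular channel protein (0.985), Bfsp1, which builds the beaded filaments of fibre cells (0.979), Fam89a (0.976) and Hsf4 (0.972) followed. Their log2 fold changes were 2.61, 2.38, 2.16, 2.31 and 2.19. Crygs had 0.904 and Crygn 0.752 by the same measure, and Cryab 0.688. Crygd, which weighs most in the sum, had 0.999, and Crygf, which weighs least, had 0.955. These correlations are descriptions over 10 rats that share libraries and scaling, and the 5 genes were picked for them.

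The listed genes took up 9026144 to 12415121 counts in the Hypothermia rats and 4792595 to 8177803 in the Normal rats, and the family 671590 to 1339086 and 79245 to 597379 of these. Even the lowest value of any member, that of Crygf in Normal rat 3, rested on 123 reads. The CV between rats was 33.4% to 61.5% over the 7 genes in the Hypothermia Group, against 55.1% to 89.8% in Normal rats.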

How the data were processed

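RNA-seq of lens capsules from 10 rats in 2 groups was analysed. Per the labels and methods, the authors used HISAT2 2.0.5 to align the read pairs to the rat build Rnor_6.0 and deposited whole-number counts per gene from featureCounts 1.5.0-p3, without normalization. The authors also deposited FPKM made from these counts and a gene length in bases. The annotation release and strand setting are not given in the sources used here. Columns of the authors' comparison (DESeq2 1.16.1 log2 fold changes, p-values, adjusted p-values and group means) were not used. The table, of 3334 rows (124 without a name), is a list of genes selected by the authors for change between these groups.

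The scaling behind the deposited FPKM was recovered from counts, lengths and FPKM (largest relative error 2.2e-09). Size factors were 0.741 to 0.975 in the Hypothermia Group and 1.08 to 1.25 in the Normal Group. Counts were fitted in edgeR 4.0.16 (R 4.3.3, filterByExpr, robust glmQLFit, glmQLFTest) with group as the only factor. Because unlisted genes had been tested too, p-values were adjusted by Benjamini-Hochberg as if 17000 genes had been tested. Ratios were compared by exact permutation tests over 252 assignments of the rats, two-sided. Correlations used a pseudocount of 1. Alternatives were other scalings, DESeq2 1.42.0, no filter, no robust fit, a replicate block, FPKM in place of counts, medians, and each rat left out. The edgeR fit was tested on simulated counts, with 1 dispersion for all genes that was not estimated from these rats.

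The members were named by the family, and members and lists were chosen with earlier results of these data known. Genes named were the 7 members, up to 4 examples a list by highest and lowest fold change, and the 5 genes most like the cluster. That all 7 regulators in the table are named goes beyond this rule and was decided after their values were seen. Rat numbers follow the sample titles.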

Additional observations from a re-analysis of the deposited data

How the results depend on the processing

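All 7 log2 fold changes stayed positive under every alternative. By edgeR, 7 genes were called with all rats and 2 to 7 with 1 rat left out. The count was 5 without Hypothermia rat 2, 3 without Hypothermia rat 1 or 5 or Normal rat 2 or 5, and 2 without Normal rat 4. Under listed-gene totals edgeR called 0, with 7 at an unadjusted p under 0.05 and 2 at an adjusted p under 0.05 at any fold. DESeq2 was not fitted with those totals, and with the size factors behind the FPKM it called 7. TMM, and TMM without the lens genes, called 5, with Crygd and Crygf at adjusted p-values of 0.0511 and 0.0548 under TMM. TMM shifted the median of all genes tested by -0.29 and median-of-ratios factors by -0.31. TMM with adjustment over the tested genes alone was added after seeing the data and called 7.

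With 1 rat left out, the difference of the cluster to Crygs ranged from 0.22 to 0.62, of the cluster to Crygn from 0.50 to 1.01, of Crygs to Crygn from 0.20 to 0.39, of gamma to alpha from 0.58 to 0.94 and of gamma to beta from 0.13 to 0.38. Gamma to alpha passed at 0.94 without Hypothermia rat 3 and at 0.92 without Normal rat 1, and gamma to beta at 0.38 without Hypothermia rat 3. Crygd against the rest of the family (0.05 with all rats) ranged from -0.038 without Normal rat 3 to 0.17 without Hypothermia rat 3, and was -0.0026 without Hypothermia rat 2. FPKM in place of counts and medians in place of means changed the direction and the call of none of the 12 ratios. The differences that medians moved by over 1.5 times were gamma to beta (0.21 to 0.46), the cluster to Crygn (0.68 to 1.13), Crygs to Crygn (0.29 to 0.12) and Crygd against the rest (0.05 to 0.12).

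With the replicate number as a block, edgeR called 6, without Crygn (1.94, adjusted p = 0.0549). The block lowered the SE of the 5 cluster genes, most for Cryga (0.73 to 0.33) and Crygf (0.71 to 0.29). It raised the SE of Crygn (0.41 to 0.47) and Crygs (0.44 to 0.48). Over all 3222 genes tested, the correlations of same-numbered rats' deviations were 0.03, -0.17, 0.03, -0.11 and 0.23, and 0 of 5 rats matched its own number best. For Cryga, the deviations of rats 1 to 5 were 0.95, 0.04, -1.16, -0.76 and 0.95 in the Hypothermia Group. In the Normal Group they were 1.78, 0.83, -2.33, -0.85 and 0.57. For Crygn, rat 3 stood at 0.58 and -1.28. The check over all genes cannot decide whether same-numbered samples shared a step that touched the family, and this was not tested. Where no other cause is shown by the construction of an alternative, the cause of a change was not tested. The deposited list limits every count of called genes to genes that were already selected.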
